A study of Mus musculus with 8 samples.

Results

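The genes that build the posterior end of the mouse embryo, time its segmentation and start its first muscle were examined in embryos lacking Arid3b. The set holds 34 genes, chosen by name for their known roles: 7 tailbud transcription factors, 9 secreted signals and signal modulators, 6 genes of the presomitic mesoderm and its clock, 8 genes of the segment boundary and the somite, and 4 myogenic transcription factors. A probe carrying the name of the gene was found for 32 of them, and 31 passed the filter on dim probes, out of 17099 genes tested in all. The expression of Fgf4 and Ripply2 was not analysed here. The genes were chosen with earlier results of these data known. The samples were total RNA of whole embryos at embryonic day 9.0, from 4 wild-type pools and 4 Arid3b-null pools of 3 to 4 embryos each, hybridised singly to Agilent arrays with Cy3 as the only dye. Arid3b encodes a DNA-binding protein with an AT-rich interaction domain. How the null allele was made, the strain, and whether pools came from separate litters are details that the sources used here do not give. All p-values therefore describe the variation among these 8 pools only.

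As the trunk lengthens, progenitors in the tailbud, held by Wnt and Fgf signals together with T, Cdx and related factors, feed cells into the presomitic mesoderm. There Tbx6 and Msgn1 set the mesodermal fate, and an oscillator of Notch, Wnt and Fgf target genes, with Hes7 and Lfng at its centre, fixes the rhythm at which segments are cut. Mesp2 positions each new boundary, Tcf15, Meox1 and Meox2 act in the somite that forms, and Myf5, Myf6, Myod1 and Myog drive the myotome. These transcripts change with stage and with the phase of the clock, and a pool averages embryos over both. In RNA of whole embryos, fewer cells of a type and less RNA per cell cannot be told apart.

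The Notch target genes of the oscillator are read out through RBPJ, the DNA-binding partner of the Notch receptor. The 250 bases before the annotated start were therefore searched for the RBPJ core motif GTGGGAA on both strands. Sequences are from RefSeq on GRCm38.p6 and were found for 27 of the 34 genes. The motif lay in 3 of these 27 genes, Hes7, Lfng and Msgn1, and in 6.18% of all genes with such windows, or 5.42% of all 32851 windows. The windows of these 3 genes are shown with that of Nrarp, a Notch target of the same presomitic and clock class. No gene of that class was called in the test between genotypes described below. Capitals mark GTGGGAA or its reverse complement TTCCCAC and, in Msgn1, also the TCF/LEF motif CTTTGAT as its reverse complement ATCAAAG. All are written 5′ to 3′ on the strand of the gene, Lfng from chr5:140607091-140607340 (+), Hes7 from chr11:69120203-69120452 (+), Msgn1 from chr12:11208949-11209198 (-) and Nrarp from chr2:25180508-25180757 (+).
Lfng: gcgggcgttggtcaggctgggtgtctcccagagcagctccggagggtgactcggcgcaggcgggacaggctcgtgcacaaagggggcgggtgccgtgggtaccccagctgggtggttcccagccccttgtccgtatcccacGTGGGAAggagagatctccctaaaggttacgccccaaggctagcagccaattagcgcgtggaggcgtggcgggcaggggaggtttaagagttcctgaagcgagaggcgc
Hes7: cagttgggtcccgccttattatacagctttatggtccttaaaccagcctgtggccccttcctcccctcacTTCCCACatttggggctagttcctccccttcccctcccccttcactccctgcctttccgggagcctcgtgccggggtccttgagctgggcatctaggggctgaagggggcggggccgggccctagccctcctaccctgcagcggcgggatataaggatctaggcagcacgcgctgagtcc
Msgn1: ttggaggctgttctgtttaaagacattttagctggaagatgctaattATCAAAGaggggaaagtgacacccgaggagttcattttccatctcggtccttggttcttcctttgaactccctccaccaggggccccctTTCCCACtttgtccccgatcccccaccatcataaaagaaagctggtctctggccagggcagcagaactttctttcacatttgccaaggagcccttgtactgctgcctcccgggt
Nrarp: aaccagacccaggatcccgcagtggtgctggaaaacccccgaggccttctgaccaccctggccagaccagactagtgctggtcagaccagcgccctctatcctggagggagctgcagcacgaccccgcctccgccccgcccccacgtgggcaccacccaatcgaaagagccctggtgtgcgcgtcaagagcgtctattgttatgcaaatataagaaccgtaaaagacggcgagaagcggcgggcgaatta
In Lfng the RBPJ match began 109 bases before the start and shared 3 bases with an E-box (CANNTG), in Hes7 it began 180 bases before the start and shared 1 base with one, and in Msgn1 it began 114 bases before the start and shared none. The Nrarp window holds no match to these letters. CTTTGAT was found for Mesp1 and Msgn1, against 3.72% of all genes, the T-box motif GGTGTGA for Fgf5, Myog and Ripply2, against 3.84%, and the AT-rich hexamer AATTAA for Dll3, Sp8 and Tbx6, against 11.8%. An E-box was found for 20 of the 27 genes and for 69.3% of all genes. These matches describe letters in a window and are not measured binding sites.

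Arid3b itself had a log2 signal, relative to the 75th percentile of its array, of 3.37 ± 0.08 in wild-type pools and 2.02 ± 0.31 in null pools (mean ± SD, n = 4), a difference of -1.35 ± 0.15 (± SE, adjusted p = 0.00577). Null pool 4 had the highest null value, 2.48, against 1.83 to 1.89 in the other null pools. With the mean of its kept probes the difference was -1.59. The sources do not say which part of the gene the null allele changes, or where the probes lie relative to it. On each array 59.9% to 64.1% of probes were well above background, and precision is set by the 4 arrays per group. Pools 1 and 2 of both genotypes lay on slide 1 and pools 3 and 4 on slide 2, and on each slide the genotypes took fixed positions, so genotype and position on the slide cannot be told apart.

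None of the 31 genes passed the test between genotypes, 0 higher (2.85% of all genes) and 0 lower (1.35% of all genes). At an unadjusted p under 0.05 there were 7 of the 31, beside 3532 of all 17099 genes. The unadjusted counts of classes and lists below stand beside that same count. The test was limma on log2 signals with Benjamini-Hochberg adjustment over all 17099 genes and a threshold of 0.05, and it called 4.20% of all genes. The smallest adjusted p belonged to Meox2 (0.089) and Nrarp (0.099). The mean was lower in null pools for 24 of the 31 genes and higher for 7, beside 8764 lower and 8335 higher over all genes. The median difference of the set was -0.12 on the log2 scale, beside -0.01 over all genes tested. Within slide 1 that median was -0.23 and within slide 2 -0.02. It was -0.06 without null pool 2, -0.20 without wild-type pool 1 and -0.22 without null pool 4. The 95% intervals excluded a 2-fold difference in either direction for 29 of the 31 genes and a 1.5-fold difference for 17. Both counts include Myod1 (0 of 4 null arrays well above background) and Rspo3 (3 of 4). For such dim signals the interval describes the signal and may not bound the change in transcript. The 4 wild-type and 4 null pools did not overlap for 2 genes, Nrarp and Meox2, both lower in null pools, which was so for 8.06% of all genes in that direction and 8.08% in the other. Below, the signal of a gene in each pool is given as a percentage of the geometric mean of its 4 wild-type pools, and a difference is null minus wild type on the log2 scale ± SE.

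**Figure D1:**
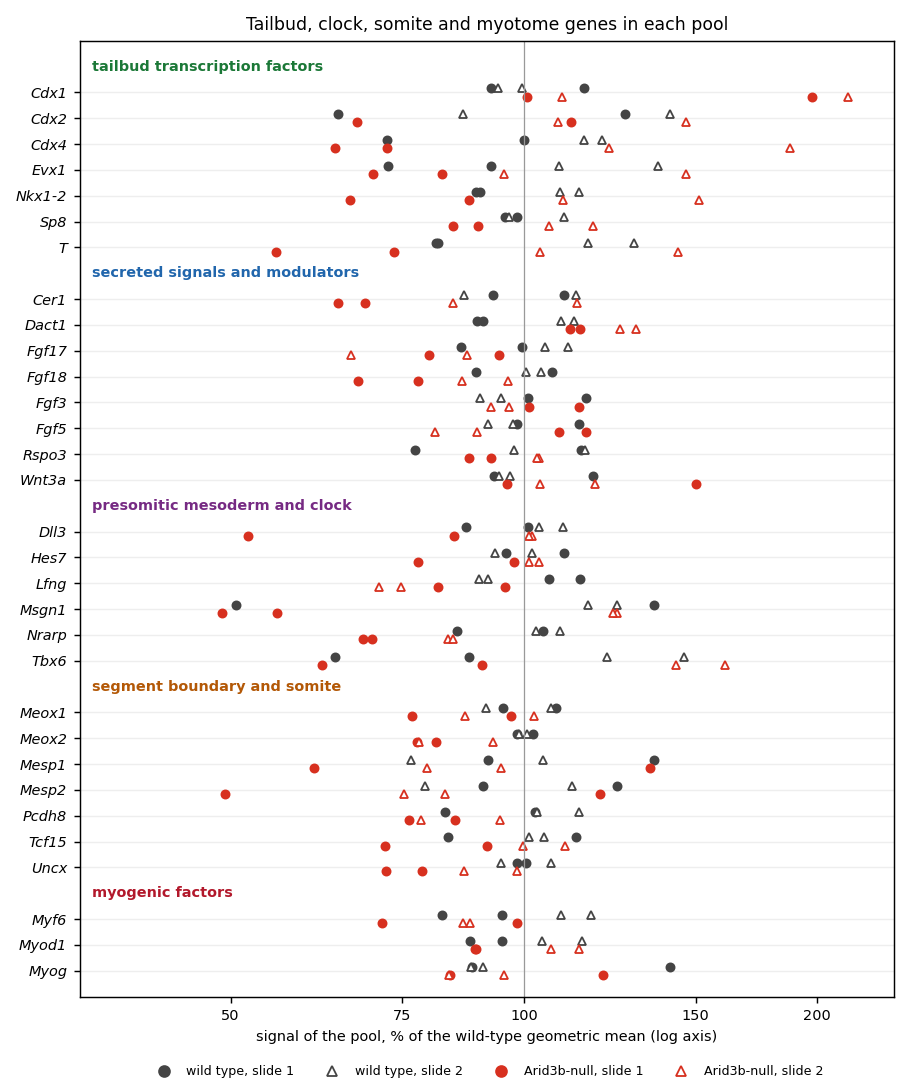
Signal of each of the 31 genes in each pool, as a percentage of the geometric mean of the wild-type pools on a log axis, grouped by role, with filled circles for slide 1, open triangles for slide 2, grey for wild type and red for Arid3b-null. T, Cdx4 and Tbx6 have their triangles to the right of their circles in both colours, and Nrarp and Meox2 have every red symbol to the left of every grey one.

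None of the 7 tailbud transcription factors was called, 0 had an unadjusted p under 0.05, and their median difference was -0.01. That median had no settled sign: it was -0.16 within slide 1 and 0.19 within slide 2, -0.22 without null pool 4, and 0.05, 0.07 and 0.07 without null pool 1, null pool 2 and wild-type pool 4. Without the other pools it ranged from -0.07 to -0.0038, and it was -0.10 both with the median shift and under normexp correction. T, the Brachyury factor of posterior mesoderm, measured 81.2%, 81.7%, 116% and 129.6% in wild-type pools 1 to 4 and 73.6%, 55.6%, 104% and 144% in null pools 1 to 4. Its highest and lowest values were both in null pools, which thus spanned the whole wild-type range, and the difference was -0.18 ± 0.30. Cdx4, a caudal-type homeobox factor, measured 99.9%, 72.4%, 120.1% and 115% in wild-type pools 1 to 4 and 63.9%, 72.3%, 122% and 187% in null pools 1 to 4. Null pool 4 stood at the top and null pool 1 at the bottom, with a difference of 0.02 ± 0.34. Cdx2, another caudal-type factor, differed more between pools of one genotype than between genotypes, at 64.4%, 127%, 86.6% and 141% in wild-type pools 1 to 4 and 67.5%, 112%, 108% and 147% in null pools 1 to 4, with a difference of 0.07 ± 0.30.

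Cdx1, the third caudal-type factor, had the largest difference of all 31 genes, 0.56 ± 0.26 (adjusted p = 0.27), or 1.47-fold higher in null pools. It measured 92.5%, 115%, 99.6% and 94.1% in wild-type pools 1 to 4 and 101%, 198%, 215% and 109% in null pools 1 to 4. The null pools split, with pools 2 and 3 at about 2 times the wild-type mean and pools 1 and 4 within or below the highest wild-type value. The difference was 0.16 under normexp background correction. Evx1, a homeobox factor of the tailbud, ranged from 72.6% to 137% in wild-type pools and from 70.0% to 147% in null pools. Nkx1-2, a homeobox factor of the axial progenitors, ranged from 89.3% to 114% and from 66.3% to 151% in the same order of groups. The zinc-finger factor Sp8 ranged from 95.7% to 110.0% and from 84.5% to 118%. For these 3 genes the differences were -0.08 ± 0.26, -0.01 ± 0.24 and -0.02 ± 0.12, and their groups overlapped. Both kept probes of Nkx1-2 gave a difference below 0, -0.01 and -0.08.

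Of the secreted signals and their modulators 8 were tested and none was called, with 3 at an unadjusted p under 0.05 and a median difference of -0.04. That median was -0.13 with the median shift, -0.11 with no shift, -0.13 with quantile normalization, -0.09 in the deposited table and -0.25 under normexp correction. It was 0.02 without wild-type pool 2, -0.11 without wild-type pool 1, -0.07 without wild-type pool 4 or null pool 2, and -0.02 without null pool 3. Dact1, a modulator of Wnt signalling that binds Dishevelled, measured 90.7%, 89.6%, 109% and 113% in wild-type pools 1 to 4 and 112%, 114%, 126% and 130.3% in null pools 1 to 4. It was higher in the null pool of all 4 same-numbered pairs, and null pool 1 alone lay below the highest wild-type pool. Its difference was 0.26 ± 0.11 (adjusted p = 0.20), with an adjusted p of 0.039 with the pool number as a block and 0.039 with the slide as a block. The other probe of Dact1 gave 0.20 ± 0.09. Wnt3a, the Wnt ligand of the tailbud, was also higher in the null pool of 4 of 4 pairs, at 93.2%, 118%, 94.2% and 96.8% in wild-type pools 1 to 4 and 96.1%, 150.3%, 118% and 104% in null pools 1 to 4. Its difference was 0.21 ± 0.15 (adjusted p = 0.50), and null pool 2 stood above the other 7 pools. Rspo3, which amplifies Wnt signalling, overlapped between the groups, with a difference of -0.05 ± 0.14 and 3 of 4 null arrays well above background.

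Fgf17 and Fgf18, ligands of the Fgf family, were lower in the null pool of every pair. Fgf18 measured 89.3%, 107%, 101% and 104% in wild-type pools 1 to 4 and 77.8%, 67.5%, 86.4% and 96.2% in null pools 1 to 4. Fgf17 measured 86.1%, 99.5%, 105% and 111% in wild-type pools 1 to 4 and 79.9%, 94.3%, 66.4% and 87.4% in null pools 1 to 4. The differences were -0.30 ± 0.12 for Fgf18 (adjusted p = 0.21) and -0.30 ± 0.13 for Fgf17 (adjusted p = 0.24), and in both genes the highest null pool lay above the lowest wild-type pool. Fgf3 and Fgf5 had differences of 0.01 ± 0.10 and -0.03 ± 0.13 and 95% intervals of -0.23 to 0.25 and -0.33 to 0.27, and under normexp correction the differences were -0.26 and -0.24. Whether these 4 Fgf genes differ from one another in response was not tested. Cer1, a secreted inhibitor of Nodal, BMP and Wnt ligands, measured 92.9%, 109.8%, 86.7% and 113% in wild-type pools 1 to 4 and 68.6%, 64.4%, 84.5% and 113% in null pools 1 to 4. Its difference of -0.31 ± 0.19 (adjusted p = 0.41) did not pass the test, with null pools 1 to 3 below every wild-type pool and null pool 4 level with the highest.

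In the presomitic mesoderm and clock class 6 genes were tested and none was called, 2 had an unadjusted p under 0.05, 5 had a lower mean in null pools, and the median difference was -0.30. Without null pool 2, which was the lowest of the 8 pools for 5 of these 6 genes, that median was -0.07. It was -0.39 within slide 1 and -0.01 within slide 2. Nrarp, a Notch-induced ankyrin repeat protein that limits Notch signalling, measured 85.4%, 105%, 103% and 109% in wild-type pools 1 to 4 and 69.7%, 68.3%, 83.7% and 84.6% in null pools 1 to 4. Every null pool lay below every wild-type pool, the nearest being null pool 4 and wild-type pool 1. The difference was -0.39 ± 0.11 (adjusted p = 0.099), or 1.31-fold lower in null pools, and the adjusted p was 0.035 with the pool number and 0.033 with the slide as a block. Its probe lies at chr2:25189829-25189888 (+) on mm7.

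Lfng, the fringe glycosyltransferase that makes Notch signalling cyclic, measured 114%, 106%, 91.8% and 89.9% in wild-type pools 1 to 4 and 81.6%, 95.7%, 71.1% and 74.7% in null pools 1 to 4. It was lower in the null pool of 4 of 4 pairs, but null pool 2 lay above wild-type pools 3 and 4. The difference was -0.32 ± 0.12 (adjusted p = 0.19), with an adjusted p of 0.047 with the pool number and 0.041 with the slide as a block. The probe lies at chr5:139585160-139585219 (+) on mm7. Dll3, a Notch ligand that acts within the cell as an inhibitor, measured 87.1%, 101%, 109.8% and 104% in wild-type pools 1 to 4 and 84.7%, 52.1%, 102% and 101% in null pools 1 to 4. Null pool 2 stood far below the other 7 pools, and the difference of -0.28 ± 0.21 was -0.06 without it.

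Hes7, the oscillating repressor, measured 95.8%, 109.8%, 102% and 93.3% in wild-type pools 1 to 4 and 97.7%, 77.8%, 101% and 104% in null pools 1 to 4. Its difference was -0.08 ± 0.11 with a 95% interval of -0.33 to 0.17, and the groups overlapped. Msgn1, a basic helix-loop-helix factor of the presomitic mesoderm, took a high and a low level in both genotypes, at 50.6%, 136%, 116% and 125% in wild-type pools 1 to 4 and 55.7%, 48.9%, 125% and 123% in null pools 1 to 4. It was well above background on only 2 of the 4 null arrays, and its interval of -1.29 to 0.66 was the widest of the set. Tbx6, the T-box factor of presomitic mesoderm, measured 64.0%, 87.9%, 122% and 146% in wild-type pools 1 to 4 and 90.5%, 62.0%, 161% and 143% in null pools 1 to 4. The difference between genotypes was 0.09 ± 0.36, while pools 3 and 4 lay above pools 1 and 2 in both groups.

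All 7 tested genes of the segment boundary and the somite had a lower mean in null pools, none was called, 2 had an unadjusted p under 0.05, and the median difference was -0.26. All 7 means were lower also with quantile normalization, with the median shift, without any shift between arrays, under normexp correction and in the deposited value table, and 6 of 7 within slide 2, without null pool 1 and without null pool 2. Slide 1 alone gave a median of -0.30 and slide 2 alone one of -0.12. Meox2, a homeobox factor of somite patterning and limb muscle, measured 98.4%, 102%, 98.8% and 101% in wild-type pools 1 to 4 and 77.7%, 81.2%, 78.1% and 92.8% in null pools 1 to 4. On this probe, the brighter of 2, the wild-type pools differed among themselves by at most 1.04-fold and every null pool lay below them. The difference was -0.28 ± 0.08 (adjusted p = 0.089), with an adjusted p of 0.046 with the pool number and 0.061 with the slide as a block. Without null pool 4 the difference was -0.34 (adjusted p = 0.049), and the dimmer probe of Meox2 gave -0.14 ± 0.16. On the dimmer probe the groups overlapped, and null pool 4 (log2 signal -2.65) was the highest of all pools. The brighter probe lies at chr12:35014505-35014564 (+) on mm7.

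Uncx, a homeobox factor of the posterior part of each somite, measured 101%, 98.3%, 107% and 94.8% in wild-type pools 1 to 4 and 72.2%, 78.7%, 86.8% and 98.3% in null pools 1 to 4. Its difference was -0.26 ± 0.11 (adjusted p = 0.21), and null pool 4 alone reached the wild-type range. The other probe of Uncx gave -0.13 ± 0.09. Pcdh8, a protocadherin of the forming boundary, was lower in the null pool of 4 of 4 pairs, at 103%, 83.1%, 114% and 103% in wild-type pools 1 to 4 and 85.0%, 76.1%, 94.4% and 78.5% in null pools 1 to 4, with a difference of -0.27 ± 0.12 (adjusted p = 0.25). Mesp2, which positions the boundary, measured 90.7%, 124%, 112% and 79.1% in wild-type pools 1 to 4 and 119.7%, 49.3%, 83.1% and 75.3% in null pools 1 to 4. Mesp1, its neighbour on chromosome 7 and a factor of early mesoderm, measured 91.8%, 136%, 105% and 76.6% in wild-type pools 1 to 4 and 135%, 60.8%, 79.6% and 94.8% in null pools 1 to 4. For both genes null pool 2 was the lowest and null pool 1 the highest null pool, and the differences of -0.36 ± 0.27 and -0.17 ± 0.26 were within the spread between pools. The other kept probe of Mesp1 gave -0.44 ± 0.33. The homeobox factor Meox1 and Tcf15, which keeps the somite epithelial, had differences of -0.15 ± 0.11 and -0.12 ± 0.15 and overlapping groups.

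Of the myogenic factors 3 were tested, and none was called or had an unadjusted p under 0.05. Myf6 had a difference of -0.22 ± 0.14 (adjusted p = 0.42), ranging from 82.3% to 117% in wild-type pools and from 71.5% to 98.3% in null pools. Myog, which drives terminal differentiation, had a difference of -0.08 ± 0.19, with pool 2 the highest of both groups at 141% and 120.5%. Myod1 was well above background on all 4 wild-type arrays and on none of the 4 null arrays, yet its mean log2 signals of -5.55 and -5.56 were nearly the same, so no fold is given. Myf5 was not well above background on any of the 8 arrays.

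**Figure D2:**
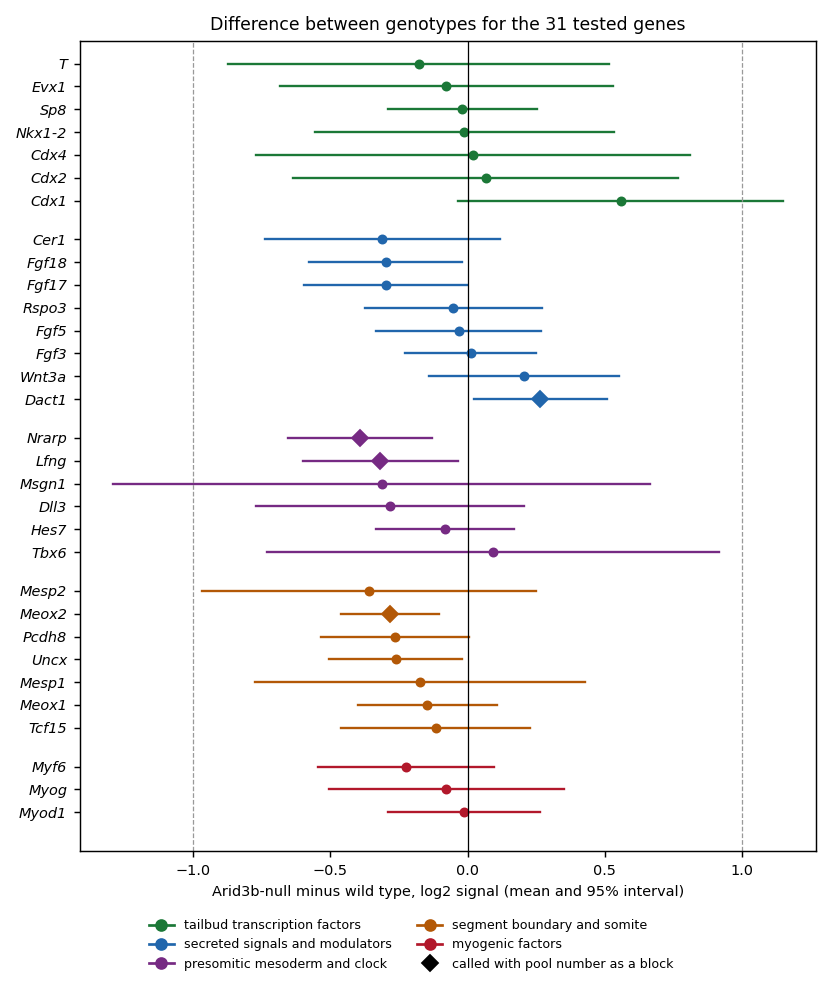
Difference between Arid3b-null and wild-type pools in log2 signal for each gene, as the mean with its 95% interval, n = 4 pools per group, grouped by role, with dashed lines at a 2-fold difference. Diamonds mark Nrarp, Lfng, Meox2 and Dact1, which passed the threshold with the pool number as a block. No gene passed it in the fit plotted, with genotype as the only term.

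With the pool number as a block, 4 of the 31 genes were called, 12.9%, and the same fit called 13.7% of all genes. They were Nrarp, Lfng and Meox2, lower in null pools, and Dact1, higher in null pools. The 3 genes called lower are 9.68% of the set, beside 5.92% of all genes called in that direction, and 7.78% of all genes were called higher. With the slide as a block 3 were called, Nrarp, Lfng and Dact1, or 9.68% beside 8.01%. The share called was thus near that of all genes in both fits. In the 4 same-numbered pairs 7 genes were lower in every null pool (Nrarp, Lfng, Meox2, Pcdh8, Fgf17, Fgf18 and Dll3). In the same pairs 3 were higher in every null pool (Cdx1, Dact1 and Wnt3a). The share of all genes with such a shift is not given here, so these counts do not set the genes apart from others.

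Pools of the same genotype varied among themselves in these genes. The residual SD within genotype had a median of 0.21 on the log2 scale over the 31 genes and 0.18 over all genes, was above the latter for 20 of the 31, and reached a median of 0.42 for the tailbud transcription factors against 0.17 for the segment and somite genes. Null pool 2 was the lowest of the 8 pools for 13 of the 31 genes, and null pool 4 the highest for 7, of which 5 were tailbud transcription factors. The median of the tailbud factors relative to their wild-type means was -0.28 and -0.47 in null pools 1 and 2 and 0.13 and 0.55 in null pools 3 and 4. Wild-type pools had the same order of slides with a narrower range, at -0.16 and -0.11 in pools 1 and 2 and 0.12 and 0.20 in pools 3 and 4.

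**Figure D3:**
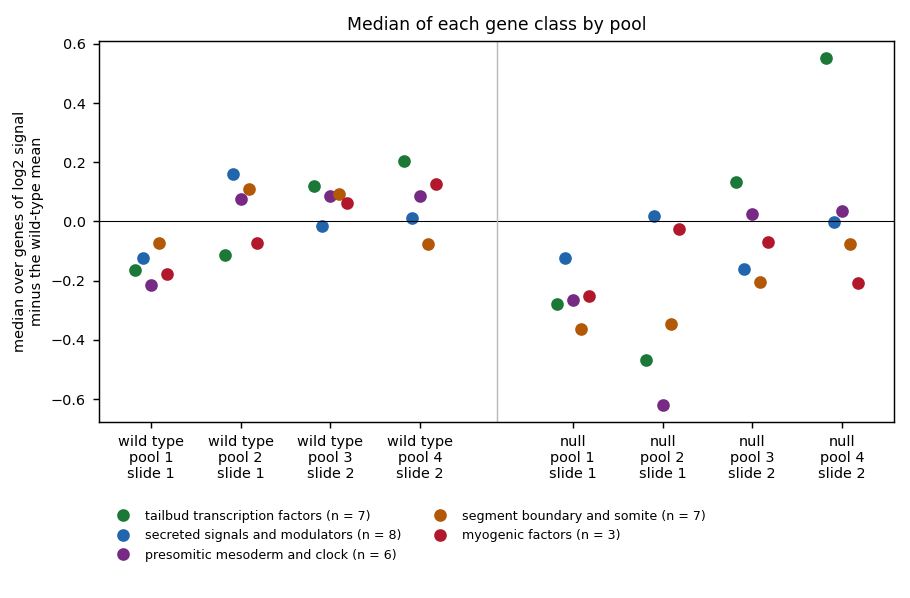
Median over the genes of each class of the log2 signal minus its wild-type mean, for each pool, with one colour per class and the number of genes in the legend. The tailbud factors are below 0 in pools 1 and 2 and above 0 in pools 3 and 4 of both genotypes, and the presomitic and clock genes are lowest in null pool 2 at -0.62.

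This pattern was tested as a difference between slide 2 and slide 1 with genotype as a term, a comparison chosen after the values were seen. It called 6 of the 31 genes, beside 12.4% of all 17097 genes, 5 of them higher on slide 2 (9.97% of all genes) and 1 lower (2.44%). Tbx6 was higher on slide 2 by 0.92 ± 0.16 (adjusted p = 0.00896), or 1.90-fold, and T by 0.76 ± 0.14 (adjusted p = 0.0142), or 1.70-fold. For both genes all 4 pools of slide 2 lay above all 4 pools of slide 1, as they did for 7 of the 31 genes (Myod1 among them) and for 13.0% of all genes. Both were called in each of the 8 fits that left out 1 pool and in 6 of the 7 other settings, the exception being normexp correction, and the probe of Tbx6 lies at chr7:122882043-122882102 (+) on mm7.

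Cdx4 was higher on slide 2 by 0.81 ± 0.20 (adjusted p = 0.041) and Dact1 by 0.24 ± 0.06 (adjusted p = 0.037), and Lfng was lower by 0.28 ± 0.07 (difference -0.28, adjusted p = 0.046). The call of Dact1 rested on its brighter probe. Its dimmer probe read -1.09, -1.16, -0.95 and -0.97 on slide 1, wild type first, and -1.43, -1.13, -1.01 and -1.07 on slide 2. It thus showed no rise on slide 2. With the mean of kept probes the slide difference of Dact1 was 0.06 (adjusted p = 0.58). Myod1 also passed the threshold as higher on slide 2, but 4 of its 8 values, those of the null pools, were not well above background, and no size is given. Each of these 4 calls held in only 1 of the 8 fits that left out a pool, and the number of genes called ranged from 2, without wild-type pool 4 or without null pool 4, to 4. All 7 tailbud factors had a higher mean on slide 2, with a median of 0.53, and 6 of 7 with the median shift, with quantile normalization and in the deposited value table. Pool and slide cannot be told apart here, since each pool was on 1 slide. The summed linear signal of the paraxial mesoderm markers (Tbx6, Tcf15, Meox1, Pax3 and Foxc2, of which 3 belong to the set) ranged from 19.5 to 25.5 on slide 1 and from 24.4 to 26.3 on slide 2. No member had a genotype difference that differed between the slides past the threshold, with 1 gene of 17097 called (0.00585%). The smallest p was that of Cer1 (0.076, not past the threshold after adjustment), whose difference was 0.59 ± 0.28 higher on slide 2.

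**Figure D4:**
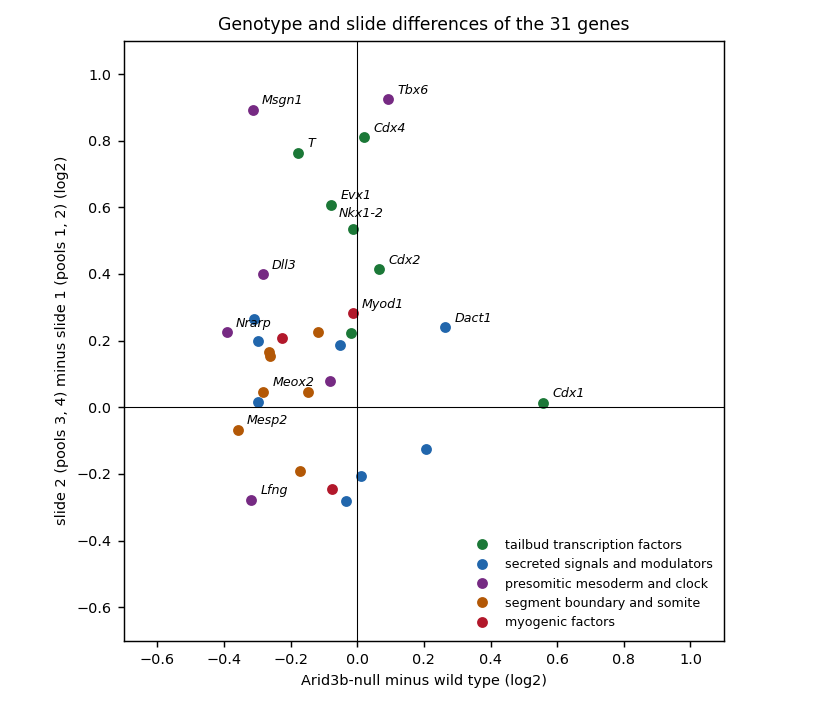
Each of the 31 genes by its difference between genotypes (horizontal axis) and between slides (vertical axis), both in log2, with one colour per class. Tbx6, Cdx4 and T have slide differences of 0.92, 0.81 and 0.76 and genotype differences between -0.18 and 0.09. Msgn1 and Myod1 are drawn from signals that were not well above background on 2 and 4 of the null arrays, so their positions are uncertain.

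Other genes of the same processes, in lists drawn up with earlier results of these data known, were read from the same fit. Of 93 tested genes in 4 lists 1 was called higher and 1 lower, beside 4.20% of all genes, and both belong to the 31 genes of the somite compartments. Pax1, a paired-box factor of the sclerotome that is also made in the pharyngeal pouches, had log2 signals of 0.85, 0.89, 0.87 and 0.62 in wild-type pools 1 to 4 and -0.15, -0.33, -0.23 and 0.22 in null pools 1 to 4. The groups did not overlap, and the difference was -0.93 ± 0.13 (adjusted p = 0.0132). Snai2, a zinc-finger repressor of migrating mesenchyme and neural crest, had log2 signals of 2.03, 2.07, 2.17 and 1.90 in wild-type pools and 2.33, 2.54, 2.48 and 2.54 in null pools, a difference of 0.43 ± 0.09 (adjusted p = 0.038). The call of Snai2 was lost with the median shift (0.34, adjusted p = 0.18), with no shift between arrays, under normexp correction, without the filter on dim probes, within either slide and in 7 of 8 fits that left out a pool, all but that without null pool 1. That of Pax1 was lost with no shift (adjusted p = 0.052), under normexp correction, within either slide and without wild-type pool 1 (adjusted p = 0.057) or null pool 3 (adjusted p = 0.056). Under normexp correction, within slide 1 and within slide 2 no gene at all was called, Arid3b included (adjusted p = 0.22, 0.15 and 0.18). Losses in those fits therefore do not set Pax1 or Snai2 apart. None of 24 genes of the clock pathways and none of 21 genes of tailbud extension was called, with 2 at an unadjusted p under 0.05 in each list, and the smallest p in both lists was that of Hes3, a repressor of the Hes family (difference -0.51 ± 0.14, adjusted p = 0.085). None of 19 muscle differentiation genes was called, with 6 at an unadjusted p under 0.05, a median difference of 0.15 and the smallest p for Acta1, the skeletal actin (difference 0.43 ± 0.11, adjusted p = 0.072). With the pool number as a block 9 of the 93 were called, beside 13.7% of all genes, and with the slide as a block 5, beside 8.01%.

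Markers of other tissues that whole embryos hold were read beside these values. All 5 neural tube markers had a lower mean in null pools, 1 was called, and their summed linear signal was 19.8 to 21.1 in wild-type and 14.2 to 17.6 in null pools. All 6 heart markers had a higher mean in null pools, 0 were called with 2 at an unadjusted p under 0.05, and their sum was 195 to 210 in wild-type and 236 to 252 in null pools. The sums overlapped for endothelium (5.99 to 7.20 and 6.41 to 8.57), primitive erythroid cells (259 to 414 and 213 to 374), yolk sac endoderm (11.5 to 21.1 and 11.1 to 19.8) and paraxial mesoderm (21.6 to 25.7 and 19.5 to 26.3). No marker on these lists was missing from the tested genes. The part of these tissues in the differences above was not tested.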

How the data were processed

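The arrays were 1-colour Agilent whole mouse designs read, per the file headers, with Feature Extraction 9.5.3.1. The deposited processed intensity of a spot is its Cy3 brightness after background subtraction and detrending. The mean spot intensity and local background intensity deposited by the authors served only for normexp correction (offset 50). The deposited value table holds log2 values of 27108 probes, column medians 9.44 to 9.47, with no source here saying how they were made. Its columns correlated at 0.9877 or more with the log2 processed signal, which settles the direction but not the scale. It served as an alternative.

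Control and outlier spots were left out, spots of a probe averaged on the log2 scale, and the 75th percentile of each array subtracted. A probe was kept if well above background on 4 or more of the 8 arrays, and the brightest kept probe stood for a gene with at least 2 values per group. Names came from the files and a RefSeq table for GRCm38.p6, and probe coordinates on mm7 were taken from the files, with no annotation of exons used here. The genotypes were compared by lmFit and eBayes of limma 3.58.1 (R 4.3.3), with Benjamini-Hochberg adjustment over 17099 genes and a threshold of 0.05. On simulated data for this comparison (17002 genes) 38%, 72% and 90% of genes changed 1.5-fold, 2-fold and 4-fold were recovered, and 6 of 142 calls were false.

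Deviations from the group means correlated between same-numbered pools at 0.557, 0.635, 0.523 and 0.426 (numbers 1 to 4). The main fit nevertheless had genotype as its only term, and its SE, p-values and intervals ignore this pairing. The pool number entered as a block only in an alternative fit. Blocked values stand beside results whose call they change. Wild-type pool 4 correlated more with null pool 3 (0.496) than with its own number, and the numbers are nested in the slides. The genes and lists were chosen with earlier results of these data known. All genes of the set are named, and per further list up to 4 called genes with the smallest adjusted p or, where none was called, the gene with the smallest p. Alternatives were the background correction, scaling, filter, probe rule, value table, blocks, single slides and leaving out each pool.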

Additional observations from a re-analysis of the deposited data

Results flagged for a closer look

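In 3 of the 62 groups of 4 pools examined for the 31 genes, 1 pool stood apart from the other 3 by more than Dixon's 95% limit. That is 4.84% of the groups, and chance flags about 1 in 20. The log2 signal of Myog in wild-type pool 2 was -0.76, against -1.44 to -1.40 in the other wild-type pools, or 158% of their mean. Msgn1 in wild-type pool 1 was at -5.91, against -4.70 to -4.48, or 40.3% of the mean of the others. Wnt3a in wild-type pool 2 was at 0.46, against 0.13 to 0.18, or 124% of the mean of the others.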

How the results depend on the processing

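Between genotypes 0 of the 31 genes were called in the main comparison and in 9 of 11 alternatives that kept all pools or 1 slide, and 0 to 1 when 1 pool was left out. Among those 9, the normexp and single-slide fits called no gene at all. With the pool number as a block (replicate block) 4 were called and with the slide as a block 3. The pairing changed the call of no other gene of the set. Of the 31 differences 15 kept their sign in all 19 alternatives, 12 of them lower and 3 higher in null pools. The blocked fits could not change a sign, since they return the main difference. Nor could the mean of kept probes for a gene with 1 kept probe. The share of all genes that kept their sign is not given here, so this count does not set these genes apart. The median difference of the set was -0.24 under normexp correction and -0.23 within slide 1, and -0.22 to -0.06 when 1 pool was left out.

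Over all genes 718 were called, 67.8% of them higher in null pools. The count was 204 with each array shifted by its median (52.0% higher), 157 with no shift between arrays (79.6% higher), 164 without the filter on dim probes (83.5% higher), 308 in the deposited table and 93 to 628 when 1 pool was left out. It was 2343 with the replicate block and 1370 with the slide block. Limma called 0 under normexp correction, within slide 1 and within slide 2, with 740, 1881 and 2867 genes at an unadjusted p under 0.05. Of the 93 related genes 2 were called. The count over the 93 was 0 under normexp correction, with no shift and within slide 1 or 2, 1 without the filter, 2 with the median shift (0 higher, 2 lower), 4 with quantile normalization, 9 with the replicate block, 5 with the slide block and 0 to 3 when 1 pool was left out.

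Between slides 6 genes of the set were called, 0 under normexp correction, 3 with no shift, 2 without the filter and 2 to 4 when 1 pool was left out. The slide difference of Lfng was 0.70 under normexp correction and that of Myod1 -0.0945 in the deposited table, both of opposite sign, and the cause was not tested, though Myod1 was not well above background on any null array. Dim signal limits Myod1, Msgn1 and Rspo3, and Myf5 was not well above background on any array.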
